A study of Mus musculus with 24 samples.

Results

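The liver transcriptome of GCN2 KO mice kept on a leucine-devoid diet was compared between circadian time (CT) 15 and CT03, the early subjective night and the early subjective day. All genes in the deposited table of these libraries were taken, 14914 of the 15741 genes found in any table of the series, and 6 of its 24 liver libraries, 3 at each time. The CT15 group and the CT03 group share the genotype, a whole-body deletion of GCN2 (gene symbol Eif2ak4), and the diet, named LeuD in the labels. After 2 days of adjustment to a control diet under a 12-h light-dark cycle with food and water ad libitum, individually housed mice received the LeuD diet from the onset of a dark phase. Lights were switched off for good 24 h later, and livers were collected under red light after 8 days of darkness. Comparisons were made with WT mice on LeuD and with KO mice on the control diet, each with 3 libraries at CT15 and 3 at CT03. The labels used here state no age, sex or strain background. Each library is labelled as a biological replicate.

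GCN2 is a kinase that is activated by uncharged tRNA and phosphorylates the translation factor eIF2 on its alpha subunit. That lowers general translation and raises translation of ATF4, whose targets (the integrated stress response) include amino acid synthesis and transport genes. The liver clock is a feedback loop in which BMAL1 (Arntl) with CLOCK or NPAS2 activates the Per and Cry repressors and the REV-ERB genes. Its output reaches lipid, glucose and xenobiotic metabolism through factors such as DBP, TEF and HLF. The study asked how GCN2 loss, leucine deprivation and their interaction alter time-of-day patterns in liver.

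The 6 libraries held 39038164 to 44226118 reads in listed genes. Reads of the 24 markers of pancreatic acinar cells summed to 8765 reads per 1000000 reads of the library (RPM) in CT15 replicate 3 and 16569 RPM in CT03 replicate 1, against 43.5 to 76.9 RPM in the other 4 libraries. The defining hepatocyte markers were high throughout: albumin alone took 13.4 to 15.3% of reads at CT15 and 11.8 to 12.3% at CT03. On the first principal component of 11970 genes, which carried 33.7% of the variance, the CT15 libraries scored -28.2, -16.4 and -30.2 and the CT03 libraries 36.1, 40.7 and -1.92, so that CT03 replicate 3 lay between the groups. The second component, with 32.1%, set apart the 2 libraries rich in acinar reads. Eif2ak4 averaged 313 ± 17.6 normalised reads at CT15 and 305 ± 53.5 at CT03 (SD, n = 3 each), within the range of the 18 other libraries (287 to 462) for all but 1 CT03 library. Reads over the whole gene do not check the deletion, since the labels used here do not name the deleted exons.

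Between CT15 and CT03, 96 genes rose and 24 fell out of 14914 (0.644% and 0.161%, 0.805% in all, limma on log2 normalised counts with 1 added, Benjamini-Hochberg adjusted p under 0.05). Among genes with an established symbol the largest rises included those of Thrsp, a regulator of fatty acid synthesis, and the clock repressors Per3 and Ciart. The fallers were led by the clock activator Npas2 and by H2-Eb1, a class II major histocompatibility complex (MHC) chain. An unadjusted p under 0.05 was reached by 2423 genes. Below, called means called by limma on these libraries unless another fit or comparison is named. With each library left out in turn, 31 to 60 genes were called, except without CT03 replicate 3, when 605 were called (4.06%, with 2.47% higher and 1.59% lower), among them all 120. That library lay nearest the CT15 group on the first principal component. More calls without it, here and below, were likely beforehand and are no separate support. The table of the authors, who deposited their own adjusted p-values, has 844 genes under the same threshold (5.66%), 536 higher and 308 lower, which also include all 120, and edgeR with all 24 libraries in 1 fit called 1185 of 14420 (8.22%). In 1648 genes (11.1%) the 3 CT15 values lay all above the 3 CT03 values, and in 1609 (10.8%) all below. Without the 2 libraries rich in acinar reads 9 genes were called, all higher at CT15, 8 of them among the 120, including Per3, Wee1, Usp2, Nrg4, Per2, Dbp and the predicted gene Gm45819. Tsku was the ninth.

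**Figure D1:**
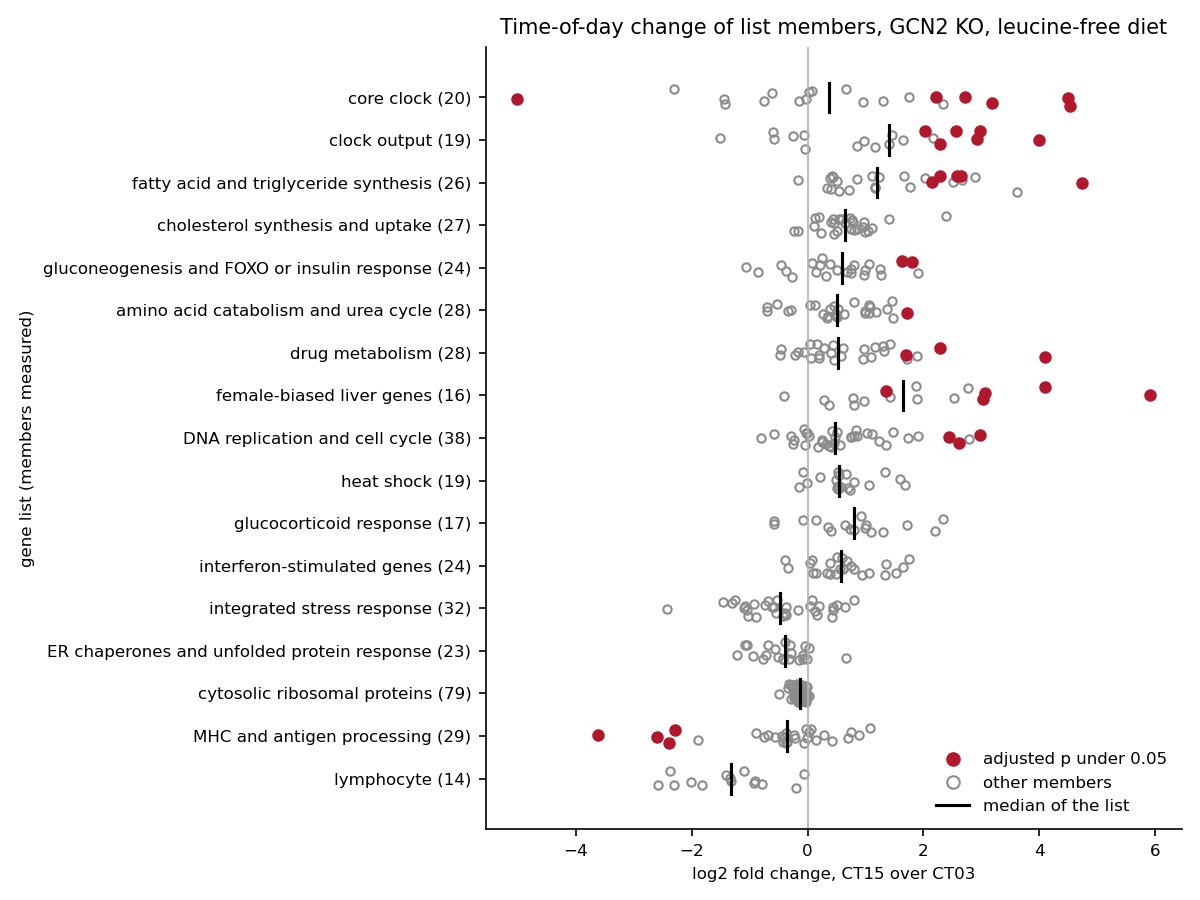
Log2 fold changes (CT15 over CT03, horizontal axis) of the measured members of 17 gene lists in KO mice on LeuD, with filled points for genes under an adjusted p of 0.05, open points for the others and a bar at each list's median. Called members lie to the right, except Npas2 in the core clock list and the 4 called genes of the MHC list, which lie to the left.

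Promoters of the called clock and clock output genes were looked up first, since the BMAL1 complexes bind the E-box CACGTG and DBP, TEF and HLF bind D-boxes. Of the 12 such genes, 8 had an entry in the RefSeq promoter table (GRCm38.p6, from 250 bases before to 50 after each start site). Per2, Wee1 and Bhlhe40 were among those with none. Ciart held 3 E-boxes, starting 116, 58 and 44 bases before the start site, and each of the 2 Tef promoters held 1. Per3 held the D-box TTATGTAA at 205 and 158 bases before its start site. Those 4 promoters are printed 5′ to 3′ on the strand of the gene, with these motifs in capitals: Ciart at chr3:95882179-95882478 (minus strand), Per3 at chr4:151044616-151044915 (minus strand), and Tef at chr15:81802423-81802722 and chr15:81811164-81811463 (plus strand).
Ciart: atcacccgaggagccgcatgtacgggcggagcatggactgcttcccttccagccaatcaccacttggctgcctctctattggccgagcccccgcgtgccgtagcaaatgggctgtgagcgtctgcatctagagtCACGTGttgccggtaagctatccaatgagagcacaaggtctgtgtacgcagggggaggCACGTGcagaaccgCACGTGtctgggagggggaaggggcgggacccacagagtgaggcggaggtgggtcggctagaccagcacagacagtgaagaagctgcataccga
Per3: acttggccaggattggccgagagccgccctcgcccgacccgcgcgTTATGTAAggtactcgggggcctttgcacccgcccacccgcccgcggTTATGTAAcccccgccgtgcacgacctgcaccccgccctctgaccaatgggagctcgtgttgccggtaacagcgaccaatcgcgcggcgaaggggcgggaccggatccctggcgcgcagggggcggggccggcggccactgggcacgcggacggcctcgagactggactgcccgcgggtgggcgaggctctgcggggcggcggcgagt
Tef, first: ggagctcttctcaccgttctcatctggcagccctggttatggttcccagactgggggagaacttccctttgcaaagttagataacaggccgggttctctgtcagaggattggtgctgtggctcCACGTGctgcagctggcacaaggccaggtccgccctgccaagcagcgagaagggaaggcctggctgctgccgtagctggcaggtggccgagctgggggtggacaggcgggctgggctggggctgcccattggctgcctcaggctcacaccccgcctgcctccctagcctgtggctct
Tef, second: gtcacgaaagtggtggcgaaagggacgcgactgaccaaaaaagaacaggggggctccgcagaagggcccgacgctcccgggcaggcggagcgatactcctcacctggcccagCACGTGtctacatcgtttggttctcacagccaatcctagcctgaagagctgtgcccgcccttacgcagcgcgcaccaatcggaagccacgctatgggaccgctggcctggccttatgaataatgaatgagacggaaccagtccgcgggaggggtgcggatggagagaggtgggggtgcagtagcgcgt
Among 32851 promoters in that table, 7.15% held CACGTG and 0.088% held 3 or more. TTATGTAA stood in 0.94% of them, counting both strands, and 2 or more copies in 0.021%. The other D-box searched, TTACGTAA, stood in 0.12% and in none of the 9 promoters of the called clock genes. The motif AGGTCA, bound by REV-ERB and ROR proteins, stood in 16.3% of all promoters and among the 9 only in that of Nampt. Dbp, Npas2, Usp2 and Por held none of these motifs within the window.

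In the core clock list, 5 of 20 measured genes rose and 1 fell at CT15, with a median log2 change of 0.38 (over all genes -0.004). Over all genes 0.644% rose and 0.161% fell, and 49.5% had a positive change. Per3, a period repressor, had 1015, 863.6 and 1011 normalised reads in the CT15 libraries, against 21.9, 41.5 and 73.3 in the CT03 libraries. Every CT15 value lay far above every CT03 value, and the log2 change was 4.53 ± 0.39 (SE, limma adjusted p = 0.00388). Per2 had 1650, 2677 and 1703 reads at CT15, against 226, 182 and 236 at CT03 (log2 3.19 ± 0.22, limma adjusted p = 0.00164). The groups did not overlap, and both genes kept their call with any 1 of the 6 libraries left out. Per1 was at 865, 1503 and 680 reads at CT15, against 566, 89.9 and 134 at CT03 (log2 2.33 ± 0.63, limma adjusted p = 0.142). CT03 replicate 1 came close to the CT15 range, and Per1 was called only without it (adjusted p = 0.0236).

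Further repressors of the loop were called. Ciart, which inhibits the BMAL1-CLOCK complex and carries the 3 E-boxes printed above, had 277, 698 and 166 reads at CT15, against 15.5, 6.05 and 23.04 at CT03 (log2 4.50 ± 0.61, limma adjusted p = 0.0206). The groups lay far apart, although the 3 CT15 livers differed among themselves more than those of Per3 did, and the call held in 2 of the 6 fits with 1 library left out, those without CT15 replicate 3 or CT03 replicate 3 (adjusted p up to 0.0832). Bhlhe40, a repressor at E-boxes, had 8027, 9473 and 10671 reads at CT15, against 1332, 1248 and 1734 at CT03 (log2 2.71 ± 0.18, limma adjusted p = 0.00164). Bhlhe40 stayed called whichever library was left out.

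Npas2, the partner of BMAL1, ran the other way. It had 3.48, 4.59 and 21.5 reads at CT15, against 244, 150 and 506 at CT03, the largest negative change of the table (log2 -5.01 ± 0.67, limma adjusted p = 0.0206). CT15 replicate 3 was the highest of its group and still far under each CT03 library. Its call held in 2 of 6 fits, those without CT15 replicate 3 or CT03 replicate 3, with a log2 change of -5.73 to -4.54 over the 6. Arntl, which encodes BMAL1, had 309, 403 and 866 reads at CT15, against 1255, 1277 and 1374 at CT03 (log2 -1.45 ± 0.34, limma adjusted p = 0.102). The groups did not overlap, and Arntl was called in the authors' deposited table (log2 -1.31, adjusted p = 0.00554). Limma on these 6 libraries did not call it, and with 1 left out only without CT15 replicate 3 (adjusted p = 0.0247).

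The REV-ERB and cryptochrome genes were more uneven. Nr1d1 (REV-ERB alpha) had 534, 384 and 154 reads at CT15, against 533, 2110 and 3378 at CT03 (log2 -2.30 ± 0.69, limma adjusted p = 0.17). CT03 replicate 1 equalled the highest CT15 library, so the groups overlapped. Nr1d1 is just under the threshold in the authors' deposited table (log2 -2.49, adjusted p = 0.0497). Cry1 had 1387, 1437 and 1740 reads at CT15, against 365, 219 and 1131 at CT03 (log2 1.75 ± 0.51, limma adjusted p = 0.163). CT03 replicate 3 stood near the CT15 values, and without that library Cry1 was called (log2 2.42, adjusted p = 0.00658). Cry2 was near the threshold (log2 0.96 ± 0.18, limma adjusted p = 0.0579) and under it without CT03 replicate 3 (0.0238), while Clock (-0.62 ± 0.22), Nr1d2 (0.67 ± 0.41) and Rora (0.02 ± 0.16) had adjusted p-values of 0.238 to 0.959.

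**Figure D2:**
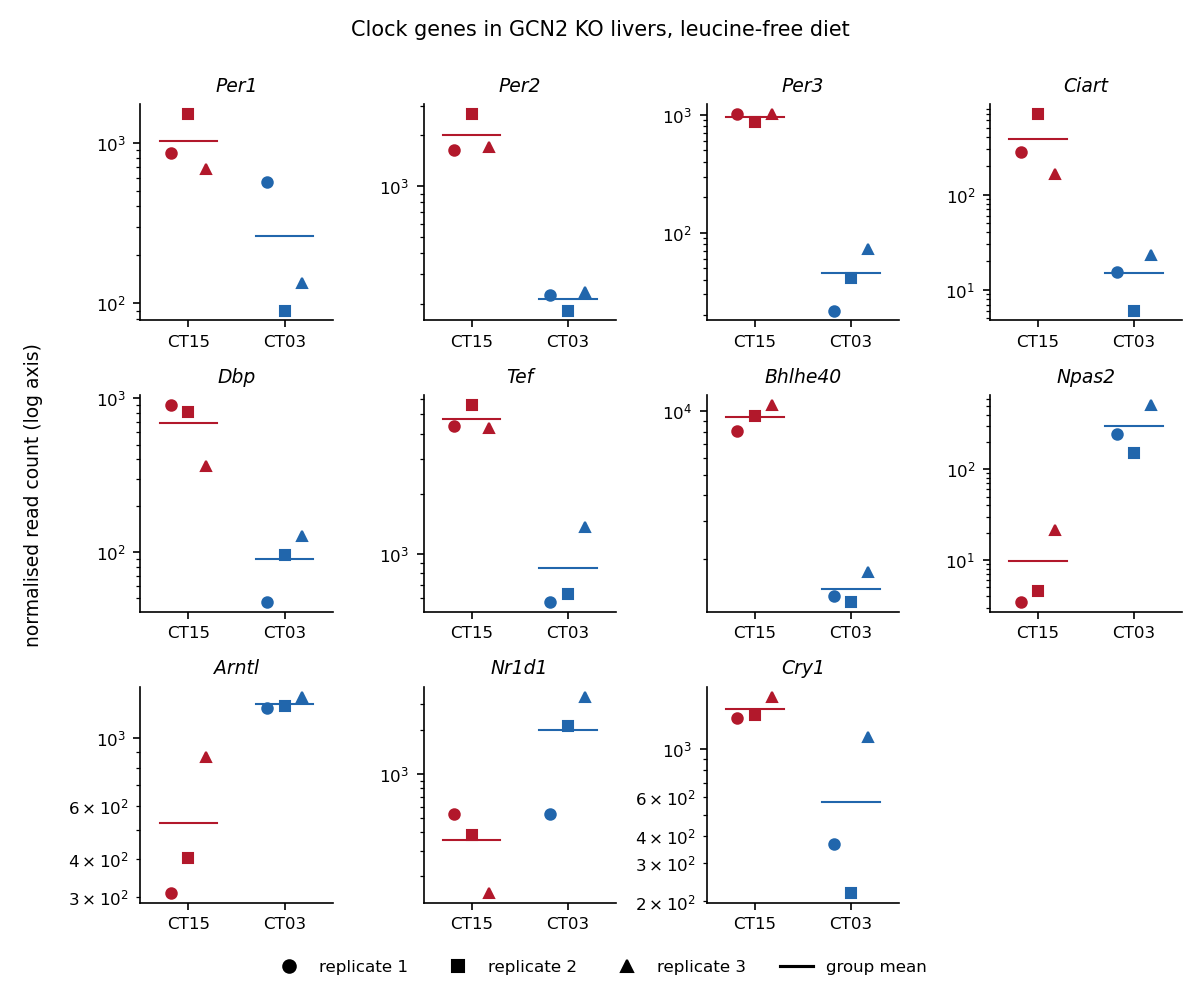
Normalised read counts (log axis) of 11 clock genes in each KO LeuD library, CT15 left and CT03 right, with 1 symbol per replicate number and a line at each group mean. The groups are apart for Per2, Per3, Ciart, Dbp, Tef, Bhlhe40, Npas2 and Arntl, while CT03 replicate 1 meets the CT15 values of Nr1d1.

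Of 19 measured clock output genes, 6 rose and none fell, against 0.644% and 0.161% of all genes (list median log2 1.41). Dbp, a transcription factor of the PAR bZIP family, had 900, 812 and 364 reads at CT15, against 47.4, 96.0 and 127 at CT03 (log2 2.93 ± 0.44, limma adjusted p = 0.0308). Its relative Tef had 4378, 5557 and 4268 reads at CT15, against 577, 631 and 1359 at CT03 (log2 2.57 ± 0.31, limma adjusted p = 0.0152). In both genes all CT15 libraries lay above all CT03 libraries, CT03 replicate 3 being the highest of its group, and each call held in 2 of 6 fits with 1 library left out: for Dbp without CT15 replicate 3 or CT03 replicate 3 (adjusted p up to 0.116 in the rest) and for Tef without CT03 replicate 1 or 3 (up to 0.0737). Hlf, the third member, was called only without CT03 replicate 3 (log2 1.47 ± 0.31 and limma adjusted p = 0.0834 with all libraries, 0.0238 without it).

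Nampt, the enzyme that salvages nicotinamide to make NAD, had 6198, 6562 and 6090 reads at CT15, against 1448, 1415 and 1778 at CT03 (log2 2.03 ± 0.14, limma adjusted p = 0.00164). The spread within each time was small beside the gap. Wee1, a kinase that inhibits CDK1, had 1672, 1234 and 852 reads at CT15, against 176, 148 and 138 at CT03 (log2 2.97 ± 0.25, limma adjusted p = 0.00388). Usp2, a deubiquitinase, had 970, 1912 and 725 reads at CT15, against 90.2, 50.1 and 71.2 at CT03 (log2 3.99 ± 0.37, limma adjusted p = 0.00452). These 3 genes were called in all 6 leave-one-out fits. Por, the reductase that feeds electrons to cytochrome P450 enzymes, rose too (log2 2.29 ± 0.33, limma adjusted p = 0.0259), with a call kept only without CT03 replicate 2 or 3 (adjusted p up to 0.136 in the other 4 fits).

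Of 26 genes of fatty acid and triglyceride synthesis, 5 rose and none fell, with 25 positive (median log2 1.21). Over all genes 0.644% rose and 49.5% were positive. Thrsp, the lipogenic protein Spot14, had 70045, 19111 and 68465 reads at CT15, against 1252, 1575 and 2407 at CT03 (log2 4.74 ± 0.50, limma adjusted p = 0.00724). CT15 replicate 2 was well under its 2 mates and still far above the highest CT03 library. Acacb, the acetyl-CoA carboxylase tied to mitochondria, had 7777, 4641 and 7223 reads at CT15, against 1265, 771 and 1237 at CT03 (log2 2.58 ± 0.26, limma adjusted p = 0.00607). Lpin1, a phosphatidate phosphatase, had 6845, 9047 and 7589 reads at CT15, against 1521, 1690 and 2060 at CT03 (log2 2.16 ± 0.17, limma adjusted p = 0.00316). Thrsp, Acacb and Lpin1 were called with any library left out. Mid1ip1, which binds Spot14, rose by a log2 of 2.65 ± 0.36 and Tkfc, which phosphorylates fructose-derived glyceraldehyde, by 2.28 ± 0.39 (limma adjusted p = 0.0206 and 0.0466), and these calls held in 3 and 2 of the 6 fits. Both were lost without CT03 replicate 1 or 2, Mid1ip1 also without CT15 replicate 2 (adjusted p up to 0.0834) and Tkfc also without CT15 replicate 1 or 3 (up to 0.198).

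The main chain-building enzymes had large changes that missed the threshold. Fasn, fatty acid synthase, had 118997, 28212 and 115521 reads at CT15, against 5834, 9054 and 17938 at CT03 (log2 2.89 ± 0.61, limma adjusted p = 0.0798). Elovl6, an elongase, had 48719, 8795 and 37301 reads at CT15, against 1434, 1512 and 3929 at CT03 (log2 3.62 ± 0.65, limma adjusted p = 0.0534). In both, CT15 replicate 2 was the lowest of its group and above every CT03 library. Over the 26 genes, CT15 replicate 2 deviated from its mates by a median log2 of -0.87 and CT03 replicate 3 from its own by 0.72. Without CT03 replicate 3, 10 of the 26 genes were called higher, against 2.47% of all genes in that fit.

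No gene of the cholesterol list was called, with 25 of 27 positive, against 49.5% of all genes (list median log2 0.64). Without CT03 replicate 3, 5 of the 27 genes were called higher, again against 2.47% of all genes. Among secreted and transport proteins outside the lists, Angptl8, a secreted regulator of lipoprotein lipase, had 12518, 20205 and 23832 reads at CT15, against 2441, 2535 and 3220 at CT03 (log2 2.75 ± 0.25, limma adjusted p = 0.00452). Mfsd2a, a lysophosphatidylcholine transporter, rose by a log2 of 3.94 ± 0.48 (limma adjusted p = 0.0153, and up to 0.0776 without CT15 replicate 3 or CT03 replicate 2, which ended the call). Nrg4, a secreted ligand of the epidermal growth factor family, had 1494, 2632 and 2465 reads at CT15, against 185, 132 and 129 at CT03 (log2 3.85 ± 0.25, limma adjusted p = 0.00164). Nrg4 and Angptl8 were called whichever library was left out. Of 28 genes of fatty acid oxidation and ketogenesis, Ppara, the nuclear receptor that induces them, was the 1 call, against 0.644% of all genes called higher. It had a log2 change of 0.82 ± 0.14 (limma adjusted p = 0.0471, called only without CT03 replicate 3 and up to 0.181 in the other 5 leave-one-out fits).

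Among 24 genes of gluconeogenesis and the insulin response, 19 were positive (median log2 0.60) and 2 rose, against 49.5% and 0.644% of all genes. Gys2, liver glycogen synthase, had 10764, 8709 and 9438 reads at CT15, against 2778, 2146 and 3457 at CT03 (log2 1.81 ± 0.20, limma adjusted p = 0.00889). Slc2a2, the glucose transporter GLUT2, had 29925, 20126 and 30966 reads at CT15, against 6881, 8235 and 11109 at CT03 (log2 1.63 ± 0.25, limma adjusted p = 0.0308). Neither pair of groups overlapped. Without CT15 replicate 1 or 3 both calls were lost (adjusted p up to 0.0565 for Gys2 and 0.149 for Slc2a2), and that of Slc2a2 also without CT03 replicate 1 or 2. The gluconeogenic enzymes Pck1 (log2 1.25 ± 0.41) and G6pc (1.26 ± 0.38) were not called (limma adjusted p = 0.196 and 0.175). Igfbp1, a target of FOXO factors, spanned 2107 to 9738 reads at CT15 and 7498 to 11856 at CT03, and was not called (log2 -0.86 ± 0.53, limma adjusted p = 0.46). In amino acid catabolism and the urea cycle, 23 of 28 genes were positive (median log2 0.50) and Got1, cytosolic aspartate aminotransferase, was called (log2 1.72 ± 0.26, limma adjusted p = 0.0308, kept only without CT15 replicate 1 or CT03 replicate 3 and up to 0.121 otherwise). None of 21 genes of branched-chain amino acid catabolism was called, and their median was 0.08.

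Of 16 measured liver genes that are higher in female than male mice, 5 rose and none fell (median log2 1.65). Over all genes 0.644% rose and 0.161% fell. Fmo2, a flavin-containing monooxygenase, had 3574, 2727 and 5008 reads at CT15, against 403, 327 and 667 at CT03 (log2 3.04 ± 0.30, limma adjusted p = 0.00607), and Fmo1, next to Fmo2 in RefSeq gene order, rose by a log2 of 1.35 ± 0.20 (limma adjusted p = 0.0306). Cyp17a1, a steroid hydroxylase and lyase, had 1933, 3600 and 3623 reads at CT15, against 427, 240 and 422 at CT03 (log2 3.06 ± 0.31, limma adjusted p = 0.00626). Sult1e1, the oestrogen sulfotransferase, had 761, 1019 and 2448 reads at CT15, against 72.9, 144 and 34.6 at CT03 (log2 4.10 ± 0.57, limma adjusted p = 0.0212). Fmo2 and Cyp17a1 stayed called with any library left out, while the call of Sult1e1 held only without CT03 replicate 2 or 3 (adjusted p up to 0.0884 otherwise) and that of Fmo1 only without CT03 replicate 3 (up to 0.127). None of 20 male-biased genes was called (median log2 -0.06, lowest adjusted p 0.401), and none of 13 major urinary protein genes (median -0.86). The drug metabolism list had 3 of 28 genes higher, Por, Sult1e1 and Fmo5, another monooxygenase (log2 1.70 ± 0.22, limma adjusted p = 0.0169, kept only without CT15 replicate 1 or CT03 replicate 3 and up to 0.0835 otherwise).

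Of 38 DNA replication and cell cycle genes 3 rose, against 0.644% of all genes: Wee1, described above, Ccne2 and Rrm2 (list median log2 0.47). Ccne2, cyclin E2, had 202, 151 and 217 reads at CT15, against 33.7, 35.4 and 32.5 at CT03 (log2 2.43 ± 0.24, limma adjusted p = 0.00584). Rrm2, a subunit of ribonucleotide reductase, had 1001, 447 and 548 reads at CT15, against 151, 81.3 and 83.8 at CT03 (log2 2.62 ± 0.35, limma adjusted p = 0.0206). Groups were apart in both, with the call kept in all 6 leave-one-out fits for Ccne2 and only without CT03 replicate 1 or 3 for Rrm2 (adjusted p up to 0.0957 otherwise). In the heat shock list 16 of 19 genes were positive, against 49.5% of all genes (list median 0.55), and limma called none (lowest limma adjusted p 0.0997). Of the 19, 3 are called higher in the authors' deposited table, against 536 of 14914 genes. Outside the list, Hspa2 and Dnajb6 were named after their values were seen. Hspa2, of the HSP70 family, had 664, 626 and 1062 reads at CT15, against 166, 97.7 and 118 at CT03 (log2 2.61 ± 0.27, limma adjusted p = 0.00724), and was called whichever library was left out. The co-chaperone gene Dnajb6 also rose (log2 0.95 ± 0.16, limma adjusted p = 0.0447), a call kept only without CT03 replicate 3 (up to 0.2 otherwise). Hspa1b, an inducible HSP70, had 439, 1171 and 288 reads at CT15, against 420, 105 and 122 at CT03, with overlapping groups (log2 1.59 ± 0.63, limma adjusted p = 0.271). The heat shock motif GAANNTTC stood in 10 of 21 promoters of 15 genes of this list, against 7.86% of all promoters. The Hsph1 windows overlap each other, as do the windows of Hspd1 and Hspe1 that hold the motif. The 10 are therefore not all separate stretches, and the share is not one of independent promoters.

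The integrated stress response list, the pathway that GCN2 feeds, had no gene called by limma among 32. In it 11 were positive, against 49.5% of all genes, and the median log2 was -0.47. The authors' deposited table calls 2 of the 32 lower and 1 higher, against 308 and 536 of 14914 genes. Trib3, a pseudokinase induced by ATF4, had 137, 139 and 134 reads at CT15, against 1048, 1475 and 260 at CT03 (log2 -2.43 ± 0.56, limma adjusted p = 0.0997). The CT15 libraries were nearly equal and below each CT03 library, with CT03 replicate 3 the closest. The authors' deposited table calls Trib3 (log2 -2.77, adjusted p = 3.91e-07), and so did limma without CT03 replicate 3 (log2 -3.18, adjusted p = 0.00109). Atf4 had 6200, 2725 and 3154 reads at CT15, against 4800, 5445 and 6250 at CT03 (log2 -0.54 ± 0.30, limma adjusted p = 0.411). Atf5, a related factor, had 17287, 21415 and 30625 reads at CT15, against 70023, 41986 and 24285 at CT03 (log2 -0.88 ± 0.39, limma adjusted p = 0.313). CT15 replicate 1 overlapped the CT03 range for Atf4, and CT15 replicate 3 did for Atf5.

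Asns and Psat1, enzymes of amino acid synthesis in the pathway, differed widely among the CT03 livers. Asns, asparagine synthetase, had 2266, 2542 and 1602 reads at CT15, against 3208, 2850 and 406 at CT03 (log2 0.44 ± 0.71, limma adjusted p = 0.79). Psat1, of serine synthesis, had 78.8, 252 and 268 reads at CT15, against 621, 833 and 24.1 at CT03 (log2 -0.42 ± 1.22, limma adjusted p = 0.891). In both genes CT03 replicate 3 had the lowest value of the 6 libraries and its 2 mates the highest. The 95% interval of the change, -1.19 to 2.07 for Asns and -3.24 to 2.40 for Psat1, leaves room for several-fold changes either way. The hormones Fgf21 (log2 -1.05 ± 0.91) and Gdf15 (-1.46 ± 0.71), Ddit3 (0.07 ± 0.40) and Chac1 (-0.93 ± 0.58) were not called either (limma adjusted p = 0.352 to 0.948).

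Endoplasmic reticulum chaperones showed the same split of the CT03 libraries. Hyou1 had 4042, 4186 and 3486 reads at CT15, against 13299, 11676 and 3637 at CT03 (log2 -1.09 ± 0.44, limma adjusted p = 0.278). Manf, a secreted chaperone, had 5481, 3486 and 3493 reads at CT15, against 14198, 12278 and 3367 at CT03 (log2 -1.05 ± 0.51, limma adjusted p = 0.351). CT03 replicates 1 and 2 were well above all CT15 libraries in both genes, while CT03 replicate 3 lay between the CT15 libraries for Hyou1 and below them for Manf. Over the 23 genes of the list, 21 were negative (median log2 -0.40), none was called, and CT03 replicate 3 deviated from its mates by a median log2 of -1.10. Without it 8 of the 23 were called lower at CT15, Hyou1 (log2 -1.68, adjusted p = 0.00544) and Manf (log2 -1.70, adjusted p = 0.0148) among them, and 4 of 32 in the integrated stress response list, against 1.59% of all genes called lower in that fit. As the library left out was the one nearest CT15 in these genes, such calls were likely beforehand. Of 20 aminoacyl-tRNA synthetase genes none was called (15 negative, median -0.21), and of 13 genes of eIF2 kinases and phosphatases none was.

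**Figure D3:**
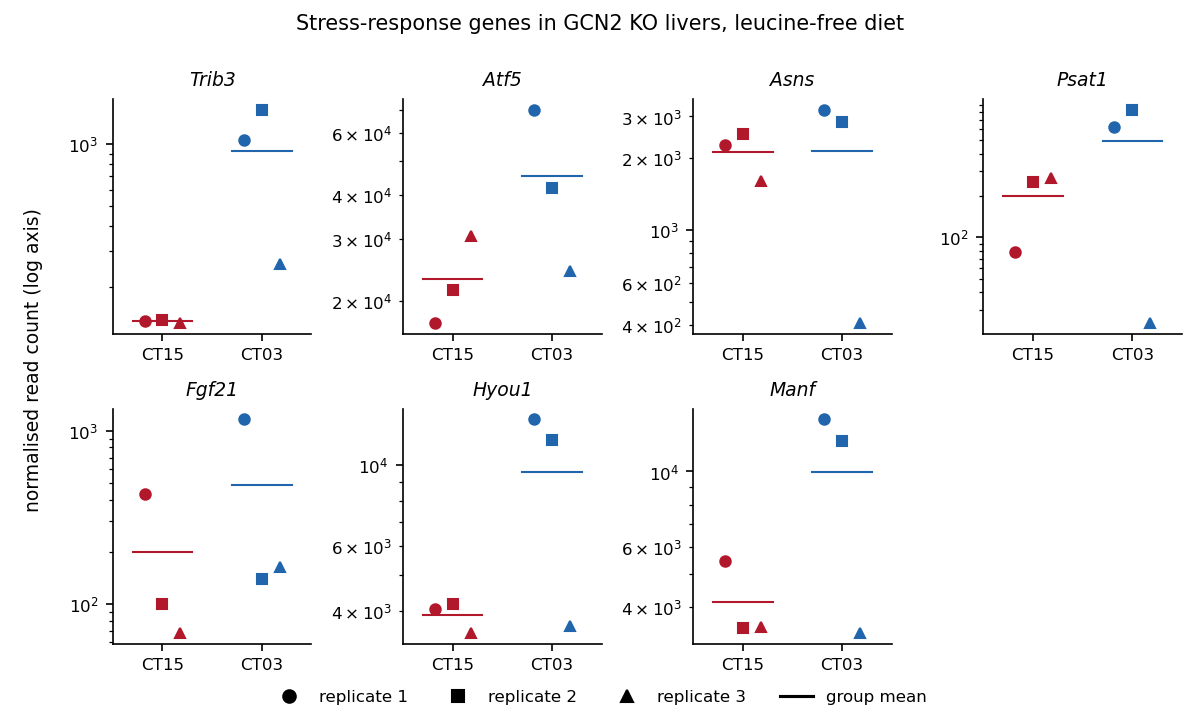
Normalised read counts (log axis) of 7 stress-response genes in each KO LeuD library, CT15 left and CT03 right, with 1 symbol per replicate number and a line at each group mean. CT03 replicate 3 (triangle) is the lowest CT03 library for Trib3, Atf5, Asns, Psat1, Hyou1 and Manf.

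Of 29 MHC and antigen processing genes, 4 fell at CT15 (list median log2 -0.35) and none rose, against 0.161% and 0.644% of all genes. H2-Eb1, the beta chain of a class II molecule, had 59.1, 68.8 and 32.9 reads at CT15, against 720, 826 and 448 at CT03 (log2 -3.63 ± 0.34, limma adjusted p = 0.00452). H2-T23, the non-classical class I molecule Qa-1, had 1547, 1334 and 1492 reads at CT15, against 9094, 8889 and 5493 at CT03 (log2 -2.39 ± 0.21, limma adjusted p = 0.00437). H2-T22, a class I molecule bound by some gamma-delta T cells, had 500, 504 and 372 reads at CT15, against 2077, 2845 and 1873 at CT03 (log2 -2.29 ± 0.20, limma adjusted p = 0.00438). The CT15 libraries were well below every CT03 library in the 3 genes, and the calls held with any library left out. H2-Q5 fell at lower counts, with 19.7, 10.1 and 9.07 reads at CT15, against 60.1, 112 and 73.3 at CT03 (log2 -2.60 ± 0.41, limma adjusted p = 0.0327, kept only without CT03 replicate 3 and up to 0.148 otherwise). The H2-T and H2-Q genes are close copies of each other, so reads could be split between them in counting. H2-T23 and H2-T22 are next to each other in RefSeq gene order. From H2-K1 to H2-M3, 7 of 116 tested genes were called (6.03%, against 0.805% of all genes), 4 lower and 3 higher: C4a, Agpat1 and H2-T-ps.

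The same 4 MHC genes were low at CT15 in KO mice on the control diet as well. On 1 scale for all 24 libraries, H2-Eb1 spanned 33.2 to 69.2 reads in the 6 KO libraries at CT15, 434 to 831 in the 6 KO libraries at CT03 and 796 to 1718 in the 12 WT libraries. H2-T22 spanned 355 to 509 reads in KO at CT15, 1885 to 3706 in KO at CT03 and 2851 to 4944 in WT. H2-T23 spanned 618 to 1572 reads in KO at CT15, 5528 to 10324 in KO at CT03 and 7130 to 11704 in WT. H2-Q5 spanned 3.04 to 20.02 reads in KO at CT15, 60.6 to 126 in KO at CT03 and 80.6 to 286 in WT. In each of these genes the KO libraries at CT15 stood clear below all others, on both diets.

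**Figure D4:**
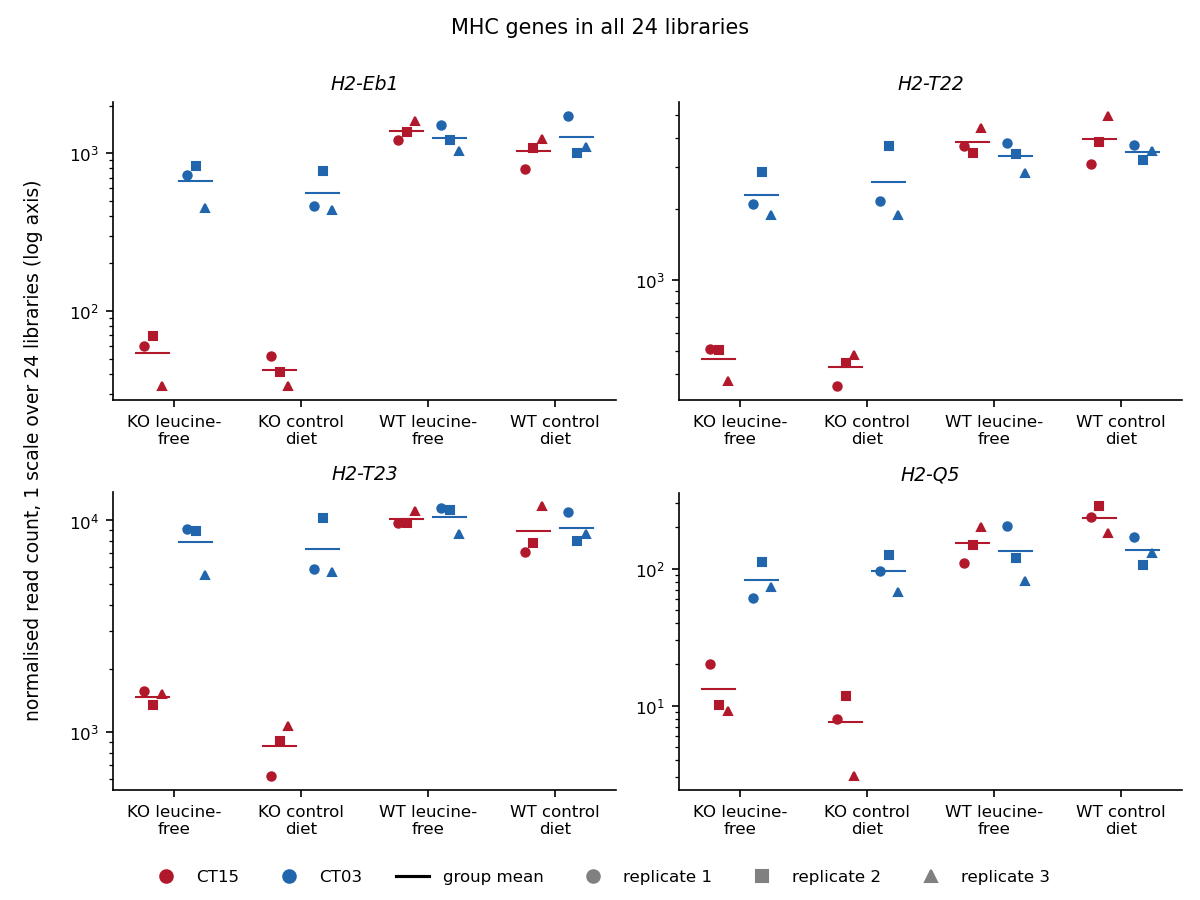
Normalised read counts on 1 scale (log axis) of 4 MHC genes in all 24 libraries, by genotype and diet, with CT15 left of CT03, 1 symbol per replicate number and a line at each group mean. The 6 KO libraries at CT15 lie below the other 18 in each panel.

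Among markers of other cell types, those of lymphocytes summed to 8.18, 6.56 and 4.48 RPM at CT15, against 26.5, 18.8 and 14.1 RPM at CT03, which do not overlap (the smallest exact permutation p of 3 against 3 libraries is 0.1). All 14 lymphocyte markers were negative, with a median log2 of -1.33, and limma called none. Cd79a, a B cell receptor component, had a log2 change of -2.31 ± 0.41 (limma adjusted p = 0.0515). The authors' deposited table calls 6 of the 14 lower, against 308 of 14914 genes. In 10 of the 14 the CT15 values lay all below the CT03 values, against 10.8% of all genes. In KO on the control diet the lymphocyte sums overlapped, at 11.37 to 15.15 RPM at CT15 and 14.76 to 22.02 RPM at CT03. Fewer lymphocytes and less RNA per lymphocyte cannot be told apart in bulk liver. The part of the lymphocyte shift on LeuD in the MHC genes was not tested. The 12 Kupffer cell and macrophage markers summed to 376 to 768 RPM at CT15 and 473 to 911 RPM at CT03, with overlap. Neutrophil markers, of which 3 of 7 were measured, summed to 1.33 to 2.31 RPM at CT15 and 2.43 to 6.68 RPM at CT03, and the 10 hepatocyte markers to 172192 to 194167 RPM at CT15 and 154493 to 163299 RPM at CT03, both without overlap. By gene, 1 of the 3 neutrophil markers lay all below at CT15, against 10.8% of all genes. Of the 10 hepatocyte markers 3 lay all above, against 11.1%. No marker of either list was called. Haemoglobin reads stood at 244 RPM in CT15 replicate 1, against 62.5 to 109 RPM in the other 5 libraries.

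Outside these groups the fallers were of mixed function. Neat1, a long noncoding RNA of nuclear paraspeckles, had 4886, 3225 and 3620 reads at CT15, against 11873, 11281 and 11982 at CT03 (log2 -1.60 ± 0.18, limma adjusted p = 0.00948). Fbxo21, an F-box protein, had 1843, 1239 and 1045 reads at CT15, against 5359, 5962 and 4285 at CT03 (log2 -1.95 ± 0.23, limma adjusted p = 0.0132). Gabarapl1, a protein of autophagosome membranes, had 6877, 7005 and 6194 reads at CT15, against 14029, 14086 and 15440 at CT03 (log2 -1.12 ± 0.14, limma adjusted p = 0.0169). Groups were apart in all 3. The call of Neat1 was lost without CT15 replicate 3 (adjusted p = 0.0695), that of Fbxo21 without CT15 replicate 2 or 3 or CT03 replicate 2 (up to 0.0632), and that of Gabarapl1 without any library but CT03 replicate 3 (up to 0.101). Mapk15, Wisp1, Rnf125, Tox2 and Gas7 fell as well, with log2 changes of -2.58 to -1.74. Their calls held without CT03 replicate 3, and for Gas7 also without CT03 replicate 1, and were lost without any other library (adjusted p up to 0.143).

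Gabarapl1 was the 1 limma call among 20 genes of the proteasome and autophagy list, against 0.161% of all genes called lower. In that fit the remaining lists gave none. Of 24 interferon-stimulated genes 22 were positive, against 49.5% of all genes (list median log2 0.57). Of these 24, 6 are called higher in the authors' deposited table, against 536 of 14914 genes. Irf9, a subunit of the factor that type I interferon activates, had 2284, 3369 and 2700 reads at CT15, against 1512, 1611 and 1221 at CT03 (log2 0.93 ± 0.19, limma adjusted p = 0.0683). CT15 replicate 2 was the highest library for Irf9, and over the list it deviated from its mates by a median log2 of 0.996. Oasl1 and Ifi35, interferon-induced but outside the list and named after their values were seen, were called (log2 1.94 ± 0.30 and 0.996 ± 0.14, limma adjusted p = 0.0327 and 0.0225). Oasl1 kept its call only without CT15 replicate 2 or CT03 replicate 3, and Ifi35 only without CT03 replicate 3 (adjusted p up to 0.103 and 0.115 otherwise). All but 1 of 79 cytosolic ribosomal protein genes were negative, by little (median -0.13), and all 13 mitochondrially encoded genes were positive (median 0.36). Glucocorticoid-induced genes had 14 of 17 positive (median 0.79), and bile acid, NRF2, growth hormone axis, acute phase, iron and BMP, ribosome biogenesis and amino acid transporter lists had medians of -0.23 to 0.41.

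The changes were set beside those of WT mice on LeuD, which share no library with the KO groups. Of the 120 genes called in KO, 115 (95.8%) had the same sign in WT, against 64.6% of all 14492 genes in both tables, and 89 (74.2%) were also called in WT, where 1424 of 14825 genes were (9.61%). Those 89 make up 6.25% of the WT calls. The 5 of opposite sign were H2-Eb1, H2-T22, H2-Q5, Oasl1 and 9030619P08Rik. Tested directly, the time effect differed between genotypes for 3 of 14492 genes (0.0207%, limma interaction over 12 libraries), with 1365 at an unadjusted p under 0.05. H2-Eb1 had a log2 time effect of -3.63 in KO and 0.16 in WT, a difference of -3.78 ± 0.39 (limma adjusted p = 0.00347). H2-T22 had one of -2.29 in KO and 0.20 in WT, a difference of -2.49 ± 0.25 (limma adjusted p = 0.00347). H2-T23 had one of -2.39 in KO and -0.03 in WT, a difference of -2.36 ± 0.26 (limma adjusted p = 0.00441). The difference was called lower in KO for these 3, and none was called higher. In all of these contrasts the 2 times are different mice. Without CT03 replicate 3 of KO on LeuD, 36 genes were called, among them Cry1 (difference 2.28, adjusted p = 0.025), and without the 3 acinar-rich libraries of the 12 none was (H2-Eb1 -3.48, adjusted p = 0.1).

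No clock gene was called for a difference of its time effect between genotypes. Per2 changed by a log2 of 3.19 in KO and 3.42 in WT (difference -0.23 ± 0.26, 95% interval -0.79 to 0.34, limma adjusted p = 0.81). Dbp changed by 2.93 in KO and 5.15 in WT (difference -2.21 ± 0.58, interval -3.47 to -0.96, limma adjusted p = 0.372). Npas2 changed by -5.01 in KO and -6.57 in WT (difference 1.56 ± 0.80, interval -0.19 to 3.32, limma adjusted p = 0.576). The interval of Per2 keeps to within a log2 of 0.79, while those of Dbp and Npas2 reach beyond 3. In the integrated stress response, Trib3 had a time effect of -2.43 in KO and -1.24 in WT (difference -1.19 ± 0.78, limma adjusted p = 0.669), and of the 30 list genes tested none was called. The lowest p-values after the MHC genes belonged to interferon-induced genes: Irf9 had a time effect of 0.93 in KO and -0.43 in WT (difference 1.36 ± 0.23, limma adjusted p = 0.125), and Oasl1 had one of 1.94 in KO and -0.38 in WT (difference 2.31 ± 0.38, limma adjusted p = 0.125). With 1 library left out, Irf9 was called only without CT03 replicate 3 of KO on LeuD (difference 1.25, adjusted p = 0.0487, up to 0.557 otherwise) and Oasl1 only without CT15 replicate 2 of that group (difference 1.94, adjusted p = 0.0348, up to 0.557 otherwise).

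**Figure D5:**
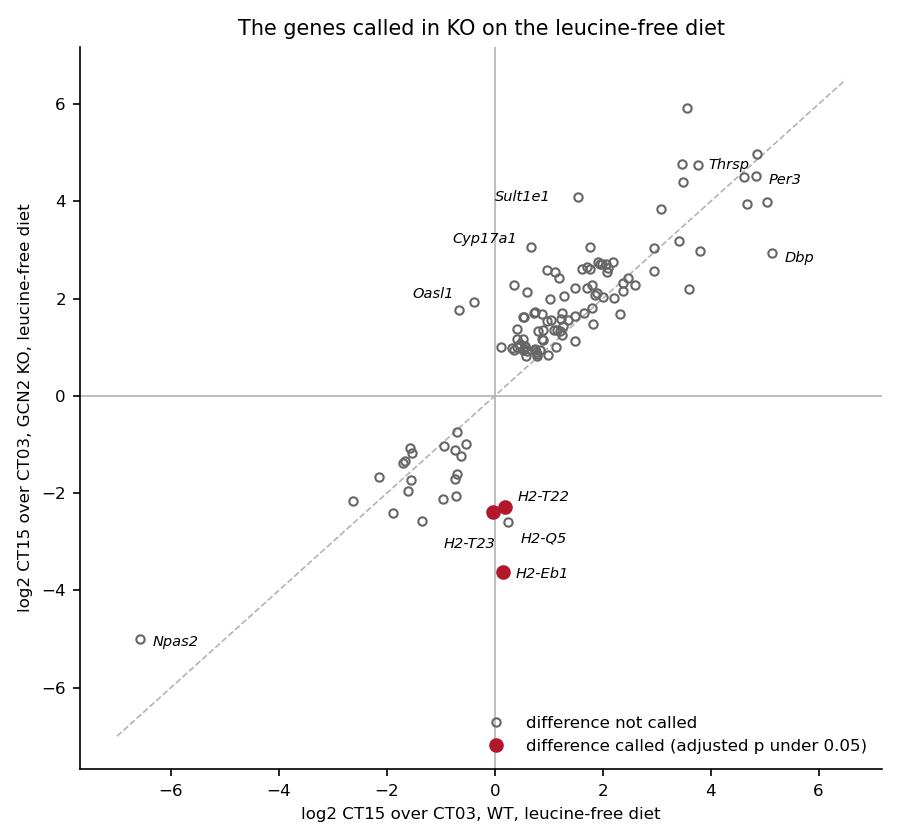
Log2 changes (CT15 over CT03) of the 120 genes called in KO mice on LeuD, in KO (vertical axis) and in WT mice on LeuD (horizontal axis), with filled points where the difference between genotypes was called and a dashed line of equal change. Most genes lie in the quadrants of equal sign, and H2-Eb1, H2-T22 and H2-T23 lie near 0 in WT and below -2 in KO.

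Against KO mice on the control diet, again with no shared library, 114 of the 120 genes had the same sign (61.8% of all 14415 genes) and 2 were called in both, where 6 of 14745 were called on the control diet (0.0407%). The time effect differed between diets for 0 of 14415 genes (0%, limma interaction; 930 at an unadjusted p under 0.05, 946 and 0 calls with edgeR). Per3 values were spread more widely among KO livers on the control diet: it averaged 963 ± 86.3 reads at CT15 and 45.6 ± 26.0 at CT03 on LeuD, and 477 ± 294 at CT15 and 178 ± 202 at CT03 on the control diet (SD, n = 3 each). Its time effect was 4.53 on LeuD and 1.90 on the control diet (difference 2.63 ± 1.06, interval 0.31 to 4.95, limma adjusted p = 0.755). That of Dbp was 2.93 on LeuD and -1.17 ± 1.47 on the control diet (difference 4.11 ± 1.70, interval 0.40 to 7.81, limma adjusted p = 0.755). On the control diet Dbp was not called for time (limma adjusted p = 0.797). On 1 scale for all 24 libraries it had 74.2, 209 and 681 reads there at CT15, against 3591, 56.5 and 589 at CT03. The groups overlapped, with 1 CT03 library far above the rest. The lowest p-values were again those of interferon-induced genes, such as Mx2, an antiviral GTPase, at 1.53 on LeuD and -1.16 on the control diet (difference 2.69 ± 0.40, limma adjusted p = 0.104). In the interferon list 22 of 24 genes were positive on LeuD and 1 of 24 on the control diet, with a median difference of 1.46 and no call.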

How the data were processed

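Liver RNA-seq of 24 libraries in 8 groups of 3 was deposited as 10 tables, each holding gene counts divided by size factors for 2 groups (a normalised signal per gene), with log2 fold changes, p-values and adjusted p-values of the authors. Per the submitters' processing notes, Trimmomatic 0.36, STAR 2.5.2b, featureCounts, Subread 1.5.2, DESeq2, DESeq and the build GRCm39 were used; their settings and the annotation are not stated in the notes used here. Per the labels' protocols, libraries were made from oligo(dT)-enriched RNA with a NEBNext Ultra II RNA kit. Whether counting used strand is not stated there, so overlapping antisense genes may not be told apart.

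Whole reads were recovered from the steps of the deposited signal: 100% of values in each of the 58 columns used were whole within 0.01, and reads of libraries shared by 44 pairs of tables differed in 0 genes. Reads of the 2 other columns came from other tables. Libraries held 34137121 to 44884200 reads. The main test was limma 3.58.1, its variance prior following mean intensity, on log2(normalised count + 1) of the 6 libraries, 2-sided, with Benjamini-Hochberg adjustment over 14914 genes; the added 1 understates changes of low genes. Differences of time effects were limma interactions over 12 libraries, for genes with a mean of 10 or more in a table. edgeR 4.0.16 and DESeq2 1.42.0 on recovered reads, other pseudocounts and filters, no trend, a replicate block and each library left out were alternatives; leaving out libraries over 1000 RPM in acinar markers was added after seeing the data. A leave-one-out fit assumes that the spread is shared by the groups. Functions were tested on simulated data.

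Members and lists were chosen with earlier results of these data known. Named genes were chosen clock and stress response genes, the 10 largest called changes each way with a mean of 50 or more and an established symbol, and the 4 lowest p-values per list; a few that meet this rule are not reported here. Neat1, Angptl8, Oasl1, Ifi35, C4a, Agpat1, H2-T-ps, Elovl6, Fasn, Tkfc, Hspa2, Dnajb6, Cd79a, Tsku, Gm45819, 9030619P08Rik and pairs of neighbouring called genes were named after their values were seen. Same-numbered libraries of the 2 times deviated from their group means with correlations of -0.421, 0.385 and -0.209, so the numbers were not taken as pairs. Gene order and promoters came from RefSeq tables of GRCm38.p6, not the deposited build; 14097 genes were matched.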

Additional observations from a re-analysis of the deposited data

Results flagged for a closer look

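Of the genes tested for a difference of the time effect between KO and WT mice on LeuD, 3 were called. The difference, KO minus WT on the log2 scale, was -3.78 for H2-Eb1, -2.49 for H2-T22 and -2.36 for H2-T23 (limma interaction, adjusted p = 0.00347, 0.00347 and 0.00441). In each, all 3 KO libraries at CT15 lay below all 3 KO libraries at CT03, while the WT means at CT15 and CT03 were 1410 and 1270 reads for H2-Eb1, 3892 and 3399 for H2-T22 and 10337 and 10596 for H2-T23. Lymphocyte marker sums were also lower at CT15 in KO on LeuD (8.18, 6.56 and 4.48 RPM at CT15 against 26.5, 18.8 and 14.1 RPM at CT03). In KO on the control diet these sums overlapped, at 11.37 to 15.15 RPM at CT15 and 14.76 to 22.02 RPM at CT03. The log2 time effects there were -3.67 for H2-Eb1, -2.55 for H2-T22 and -3.07 for H2-T23. The part of lymphocytes in the result was not tested. Time of day and any other difference between the KO mice taken at CT15 and at CT03 cannot be told apart.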

How the results depend on the processing

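Of 41 named genes that were called, none changed sign under any alternative. They were taken because they were called on these libraries, which the alternatives reuse, so a change of sign was unlikely beforehand. The call was kept by 17 of them with each library left out in turn. It was kept by 7 without the libraries over 1000 RPM in acinar markers. The count of 120 genes became 46 with no intensity trend, 845 with DESeq2, 844 in the authors' deposited table, 1185 with edgeR on all 24 libraries, 1169 with limma on all 24 libraries, and 9 without the libraries over 1000 RPM in acinar markers. With the replicate block it was 69, of which 57 were among the 120, although the replicate numbers did not pair the samples. With each library left out the count ran from 31 to 605 and 25 genes were called in every such fit. Pseudocounts, a mean of 50 or more, TMM factors and edgeR on the 6 libraries gave 119 to 137. The count of 3 for the difference between genotypes was 3 with the replicate block and became 0 without the acinar-rich libraries, and 3 to 36 with 1 library left out. The count of 0 for the difference between diets was 0 with the replicate block and 0 to 1 with 1 library left out (Arfgap3). The cause of these shifts was not tested; without the acinar-rich libraries each KO group on LeuD keeps 2 libraries. With 3 libraries a group, an adjusted p above 0.05 does not show equal levels.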

Other observations

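The called genes include pairs that are neighbours in RefSeq gene order. Of 14097 genes placed in that order 113 were called. Among them 6 pairs were adjacent, including Fmo1 with Fmo2, H2-T23 with H2-T22, Dclre1a with Nhlrc2, Zfp970 with Gm14403, and Itpr1 with Bhlhe40. How many adjacent pairs would arise without any link between neighbours was not tested. In each of these pairs both genes changed in the same direction, by log2 values of 0.90 and 0.85 for Dclre1a and Nhlrc2 and of 1.38 and 2.71 for Itpr1 and Bhlhe40. Equal direction says little by itself, since 80.0% of all calls were higher. Among genes of little-described function, the predicted gene Gm45819 had 266, 296 and 288 reads at CT15, against 10.02, 6.05 and 8.38 at CT03 (log2 4.98 ± 0.28, limma adjusted p = 0.00137), the lowest adjusted p of the table. Eif3j2, a paralog of the initiation factor subunit gene Eif3j1, was not called for time (log2 0.19 ± 0.16, limma adjusted p = 0.588), and averaged 758 ± 111 reads at CT15 and 658 ± 57.5 at CT03 in KO mice on LeuD and 77.9 ± 20.7 at CT15 and 58.6 ± 9.12 at CT03 in WT mice on LeuD (SD, n = 3 each, 1 scale).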
